A study of Homo sapiens with 4 samples.

Results

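Lone introns are introns that stand alone in the deposited intron table: the identifier is 1 Ensembl gene, that gene has no other row in the intron table, and it has no row in the gene table. The rule took 1112 of the 2672 listed introns (41.6%), 1 in each of 1112 genes. A further 646 introns belonged to genes with 2 or more listed introns outside the gene table, 779 to genes of the gene table and 135 to merged loci, in which overlapping genes share an identifier. The rule did not use levels or direction, but each intron was listed because the authors' own test called it.

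RNA was sequenced from HepG2, an established human hepatoma line, in 4 libraries. In 1 group of 2 libraries METTL3 had been silenced with an siRNA, and the other 2 libraries came from cells given a scrambled siRNA. Both groups were transfected again at 48 and 96 hours and collected on day 7, and both carry the transfection itself. The authors' deposited table gives METTL3 itself 955 normalized counts in the control and 241 after knockdown. The 8 hepatocyte markers fixed for a check of the cell line, among them ALB and APOA1, had no row in the gene, intron or isoform table. Exons and merged loci were not searched for them. Since the tables hold changed features only, this says nothing of their level.

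METTL3 is the methyltransferase that places N6-methyladenosine (m6A) on nascent and messenger RNA. Reads in an intron of poly(A) RNA can come from a retained intron, that is, a spliced and polyadenylated transcript that still holds it, from a nuclear transcript whose last introns wait to be removed (a detained intron), or from another transcript that lies inside the intron. Genes of splicing factors are known for such introns, which take part in setting the level of their own protein. Introns also house small nucleolar RNAs and microRNA hairpins, which are processed out of the host transcript.

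The intron table names an intron by a number and gives no coordinates, so the listed introns themselves could not be read from a sequence. GENCODE release 29 (GRCh38) does hold 2 introns inside listed isoforms of these genes that it types as retained intron, and they are shown because they tie an intron's sequence to a measured transcript. Capitals mark the first and last pair of bases of the intron, 5′ to 3′. The POGZ intron is chr1:151406632-151406910, minus strand, and the PHLDB1 intron is chr11:118645651-118645734, plus strand. Whether they are the numbered introns of the intron table cannot be told.
POGZ: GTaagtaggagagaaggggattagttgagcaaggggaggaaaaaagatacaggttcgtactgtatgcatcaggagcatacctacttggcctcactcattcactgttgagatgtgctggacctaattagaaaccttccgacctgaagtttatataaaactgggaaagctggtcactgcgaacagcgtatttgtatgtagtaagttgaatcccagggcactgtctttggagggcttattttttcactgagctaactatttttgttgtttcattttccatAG
PHLDB1: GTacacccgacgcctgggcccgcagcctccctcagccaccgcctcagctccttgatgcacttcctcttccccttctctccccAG
The POGZ intron has 279 bases, the splice site pair GT and AG and 41.9% G and C. The PHLDB1 intron has 84 bases, the same pair and 66.7% G and C. The POGZ isoform that holds its intron went, by the authors' deposited table, from 6.86 FPKM in the control to a listed 0 (FPKM, fragments scaled by transcript length and library size, 1 value per group). By the authors' deposited table the PHLDB1 isoform went from 0.913 to 0.172 FPKM. The lone introns of both genes were also lower, intron 18 of POGZ at 546 and 216 normalized counts and intron 11 of PHLDB1 at 68.0 and 19.2.

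A further set of sequences is shown because the genes with a lone intron house them. Of the 1062 genes found in GENCODE, 49 hold a RefSeq microRNA hairpin (GRCh38) on their own strand outside every annotated exon, and 34 of these 49 (69.4%) had a lower lone intron, close to the 68.2% of all 1062. Mature sequences are given with the seed, bases 2 to 8, in capitals.
miR-33b-5p: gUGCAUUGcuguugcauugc
miR-33a-5p: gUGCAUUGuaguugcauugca
miR-449a: uGGCAGUGuauuguuagcuggu
miR-449b-5p: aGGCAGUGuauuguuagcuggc
miR-449c-5p: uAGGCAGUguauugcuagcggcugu
let-7f-5p: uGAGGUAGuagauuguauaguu
miR-98-5p: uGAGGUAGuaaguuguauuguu
miR-140-5p: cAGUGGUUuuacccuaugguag
miR-326: cCUCUGGGcccuuccuccag
miR-504-5p: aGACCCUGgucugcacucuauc
miR-33a and miR-33b share the seed UGCAUUG and sit in the genes of the 2 sterol-responsive transcription factors, SREBF2 and SREBF1. Lone introns of both host genes were lower: intron 10 of SREBF2 went from 82.8 to 19.3 normalized counts and intron 22 of SREBF1 from 178 to 48.5. HUWE1, a ubiquitin ligase gene, houses the let-7f and miR-98 hairpins with the seed GAGGUAG, and its intron 10 went from 124 to 46.3. CDC20B houses the miR-449 cluster, in which miR-449a and miR-449b share the seed GGCAGUG, and its intron 15 rose from 348 to 777. WWP2, the host of miR-140, also rose at intron 11, from 78.5 to 245. ARRB1, host of miR-326, went from 22.7 to 1.22 at intron 6, and FGF13, host of miR-504, from 27.8 to 1.24 at intron 3. These values count reads over a whole numbered intron of the host gene, and the mature microRNAs were not measured. Whether a hairpin lies in the numbered intron or in another intron of its host gene cannot be told.

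RPL37, a gene of the large ribosomal subunit, gave opposite directions for an intron and a small RNA from the same strand of the same gene. SNORD72 is a box C/D small nucleolar RNA of 80 bases at chr5:40832656-40832735, minus strand, outside the exons of RPL37.
SNORD72: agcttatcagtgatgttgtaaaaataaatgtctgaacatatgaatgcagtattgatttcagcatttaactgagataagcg
Intron 1 of RPL37 fell from 479 to 47.7 normalized counts, while the authors' deposited table gives SNORD72 56.7 FPKM in the control and 204 after knockdown. Across all genes with a lone intron, 18 listed small RNAs in 16 genes lay inside the gene and outside its exons, 10 on the gene's strand and 8 on the other. Of the 10, 4 went the way of the lone intron and 6 the other way, and of the 8, 4 went each way. On the other strand, hsa-mir-302c inside LARP7 went by the authors' deposited table from 134 FPKM to a listed 0, beside a fall of LARP7 intron 19 from 137 to 50.8. A U5 copy inside HHAT rose by the authors' deposited table from 1.03 to 12.3 FPKM, beside the rise of HHAT intron 11 described below. FPKM divides by length, so few fragments can give a high value on features as short as SNORD72 (80 bases) and hsa-mir-302c (68 bases). With 1 value per group, the spread of these values is unknown. Whether a small RNA lies in the numbered intron of its gene cannot be told.

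Levels and direction come next. All intron levels are the authors' means of 2 libraries per group in normalized counts (reads divided by a library size factor), with no value per library, so no SD can be given. The median lone intron had 113 normalized counts in the control and 82.2 in the knockdown. In the control the middle 50% ranged from 51.8 to 213, and in the knockdown from 34.1 to 163. By the authors' deposited table, lone introns that were lower in the knockdown numbered 762 and those that were higher 350, so 68.5% were lower, beside 71.7% of all listed introns. The share was 71.4% among genes with several listed introns and 75.6% in genes of the gene table. The median log2 fold change was -1.25, against -1.36 over all listed introns. A fall had a median of -1.54 and a rise of 1.63 on the log2 scale in the authors' deposited table.

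**Figure D1:**
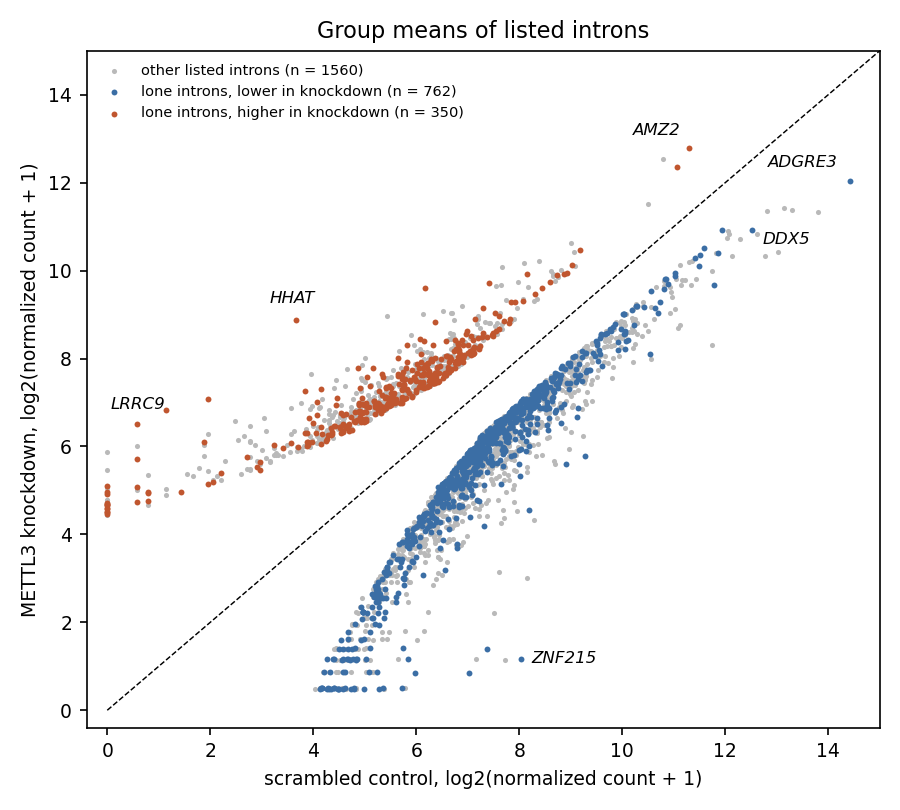
Group means of the 2672 listed introns, control on the x axis and knockdown on the y axis, both as log2(normalized count + 1), each point 1 intron. The 762 lone introns that were lower lie under the dashed line of equal level and the 350 that were higher lie above it, with an empty band between them because only changes of at least 2-fold are listed.

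Most changes were moderate. The change was under 3-fold for 574 of the 1112 (51.6%), beside 46.1% of all listed introns, and at least 4-fold for 281 (25.3%), beside 31.1%. At the edge of the authors' 2-fold limit stood RECQL, a DNA helicase gene, at 270 and 135, ZNF195 at 3906 and 1950, PRDX6, a peroxiredoxin gene, at 489 and 978, and SMYD5 at 147 and 295, each control before knockdown. Introns with a mean under 50 normalized counts had a median absolute log2 change of 2.95, against 1.25 above 200. The share lower was 77.9% in the lowest of these classes (217 introns), 64.3% from 50 to 100 (308 introns), 61.8% from 100 to 200 (340 introns) and 74.9% above (247 introns). Over all listed introns the same 4 shares were 75.1%, 68.1%, 67.7% and 77.7%.

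The highest level by far was intron 1 of ADGRE3, which encodes an adhesion receptor best known from myeloid cells. It fell from 22021 to 4235 normalized counts, with the smallest adjusted p of all lone introns (7.64e-298 in the authors' deposited table). GENCODE places 2 processed pseudogenes inside ADGRE3, outside its exons, and whether reads of such copies enter its count was not tested. DDX5, an RNA helicase, fell at intron 2 from 5877 to 1926. AMZ2, a metalloprotease gene, rose at intron 7 from 2518 to 7062 and CLPTM1L at intron 10 from 2136 to 5214, the 2 highest among the rises. RO60, which binds Y RNAs, fell at intron 9 from 2882 to 1095, PSMA8 at intron 4 from 2910 to 1310, and SLC9A9 at intron 7 from 2717 to 1241. PSMA8 encodes a proteasome subunit of germ cells and SLC9A9 an endosomal sodium/proton exchanger. PSMA8 and SLC9A9 also hold processed pseudogenes outside their exons, among them DHFRP1 and GAPDHP47. Over all 1062 genes in GENCODE, 190 (17.9%) held a processed pseudogene outside their exons: 20.03% of genes with a lower and 13.3% of genes with a higher lone intron. The share was 20.8% in genes with several listed introns and 21% in genes of the gene table.

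The steepest falls among genes with a symbol reached almost nothing in the knockdown. Intron 7 of ZNF215, a zinc finger gene, went from 262 to 1.24 normalized counts. BTNL8, a butyrophilin-like gene, went from 164 to 1.64 at intron 4. RND1, a small GTPase, went from 61.8 to 0.799, SH2D4B from 39.9 to 0.420, FCRL4 from 37.9 to 0.400, ITIH5 from 25.6 to 0.400 and CLIP2 from 26.7 to 0.420. Also in this group were ADAP2 (26.9 to 0.400), the pseudogene NPM1P50 (30.6 to 0.400) and KLKB1 (22.7 to 0.400), which encodes plasma prekallikrein, a liver protease. The 2 lowest knockdown means over all listed introns were 0.400 and 0.420, and no fold is given for introns this close to 0.

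**Figure D2:**
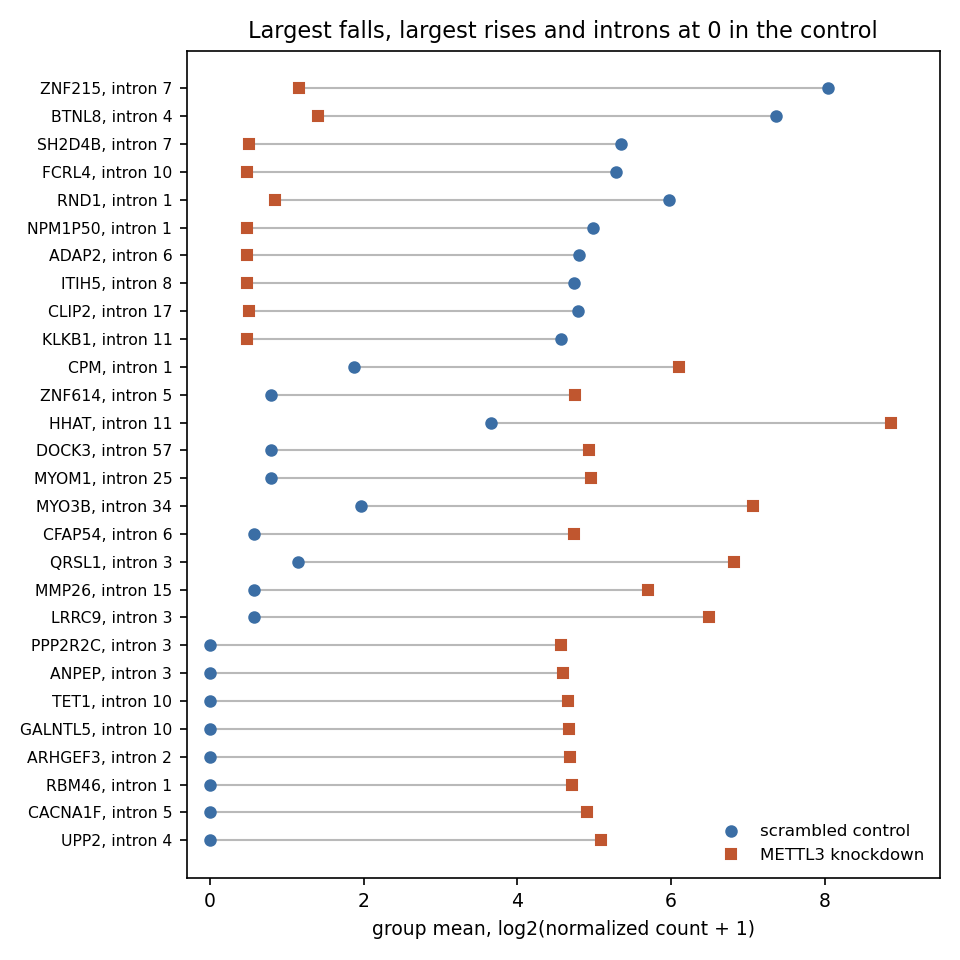
Group means, as log2(normalized count + 1), of the 10 largest falls, the 10 largest rises and 8 introns listed at 0 in the control, all among genes with a symbol, circles for control and squares for knockdown. Among the rises, HHAT, MYO3B, QRSL1 and LRRC9 reach 467, 134, 112 and 89.6 in the knockdown, while the 12 introns at 0 in the control, of which 8 are shown, stay between 21.2 and 33.2.

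Of the 10 largest rises among genes with a symbol, HHAT was the most abundant. HHAT encodes the acyltransferase that palmitoylates Hedgehog proteins, and its intron 11 went from 11.6 to 467 normalized counts. MYO3B, an unconventional myosin, rose from 2.91 to 134 at intron 34, and QRSL1, which acts in mitochondrial glutaminyl-tRNA synthesis, from 1.21 to 112 at intron 3. LRRC9 went from 0.483 to 89.6, MMP26, a matrix metalloprotease gene, from 0.483 to 51.2, and CPM, a membrane carboxypeptidase, from 2.67 to 67.8. The remaining genes of these 10 had under 1 normalized count in the control: CFAP54, MYOM1, DOCK3 and ZNF614, with 25.6, 30.2, 29.7 and 25.98 in the knockdown. QRSL1, MYO3B, CPM and DOCK3 each hold at least 1 processed pseudogene outside their exons by GENCODE, as do HHAT and MMP26, while LRRC9, CFAP54, MYOM1 and ZNF614 hold none.

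No lone intron was listed at 0 in the knockdown, but neither was any other of the 2672 listed introns. In the control 12 lone introns were listed at 0, beside 28 of all 2672 listed introns (1.05%). They had 21.2 to 33.2 normalized counts in the knockdown, all low, and 11 of them carry a gene symbol. UPP2, a uridine phosphorylase of liver, had the most, at 33.2, followed among genes with a symbol by CACNA1F, a calcium channel subunit, at 29.1, RBM46 at 25.2, ARHGEF3 at 24.8, GALNTL5 at 24.6 and TET1, a 5-methylcytosine dioxygenase, at 24.3. ANPEP, the aminopeptidase N gene, reached 23.1 and is also listed with an isoform at 0 in the control and 0.0656 FPKM after knockdown by the authors' deposited table. At or under 1 normalized count in 1 group stood 49 introns, 19 near 0 in the control and 30 in the knockdown, beside 3.56% of all listed introns. A listed isoform was found for 2 of the 19 and 4 of the 30, beside 26.5% of all genes with a lone intron, and the difference was not tested.

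The genes were mainly protein coding (1025 of 1112). GENCODE types 25 as pseudogenes, of which 24 were lower, and 12 as long noncoding RNA or processed transcript, of which 10 were lower. Of all lone introns 68.5% were lower. Gene types were not counted over all listed introns, and some of these pseudogenes, such as NPM1P50 and TMCO5B, were near 0 in the knockdown. DUSP8P1 was the most abundant pseudogene (2084 to 984), and DUXAP8 (1043 to 378), NBR2 (352 to 116), UCA1 (51.8 to 13.2) and SNHG29 (412 to 202) were among the noncoding genes. Another 50 identifiers were not in GENCODE 29. In 9 rows, 3 sets of genes carried identical values and cannot be told apart, among them CTSLP6 with 4 unnamed genes and GPR89B with its copy. The intron number exceeded that of the longest GENCODE transcript in 111 of 1062 genes, by far for RAX2 (intron 47) and EIF2AK2 (intron 74), so the numbering does not match this annotation and such a row is uncertain. Such genes also include MMP26 (intron 15), DOCK3 (intron 57), NPM1P50 (intron 1) and DUSP8P1 (intron 2), which are named in these results. Of those 111, 78.4% were lower, against 66.98% of the rest. GENCODE gives a retained-intron transcript for 65.7% of the genes with a lone intron, 67.3% of those with several listed introns and 61.8% of those in the gene table.

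Of 40 lone introns in splicing and RNA processing genes, 32 were lower (80%, beside 71.7% of all listed introns) and 8 higher in the authors' deposited table, with a median log2 fold change of -1.23; 14 of the 32 falls were smaller than the median of all listed introns. SRSF11 fell at intron 3 from 3531 to 811, SRSF5 at intron 5 from 3730 to 1351 and HNRNPDL at intron 1 from 1645 to 525. These 3 genes encode an SR-rich splicing factor, a classical SR protein and a heterogeneous nuclear ribonucleoprotein. The rises were in TIAL1 (141 to 480), DHX32, DDX31, U2AF1, ACIN1, ZCCHC7, CNOT11 and RBM46. Genes known for detained or regulated introns gave 14 lone introns, all 14 lower, 8 of them by less than that median. They include CCNL1 and CCNL2, the cyclin L genes (898 to 417 and 1855 to 893), TRA2B (867 to 408), LUC7L (231 to 91.5), CLK2, a kinase of SR proteins (155 to 56.2), and HNRNPD (547 to 175). Over all listed introns, 43 of 44 in this list and 72 of 83 in the splicing list were lower. The lists overlap, with SRSF11, SRSF5, HNRNPDL and DDX5 in both, so they are not separate sets.

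The m6A list held 4 lone introns and all 4 were lower, 3 of them by less than the median of all listed introns. Of all listed introns 71.7% were lower, and 4 introns are too few to set a share apart from that. HNRNPC and HNRNPA2B1, nuclear proteins linked to reading m6A, went from 394 to 180 and from 448 to 220. YTHDC2, a YTH domain helicase, went from 261 to 106 and IGF2BP3, a binding protein of m6A-marked messenger RNA, from 86.2 to 28.7. None of the 4 genes had a listed isoform.

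**Figure D3:**
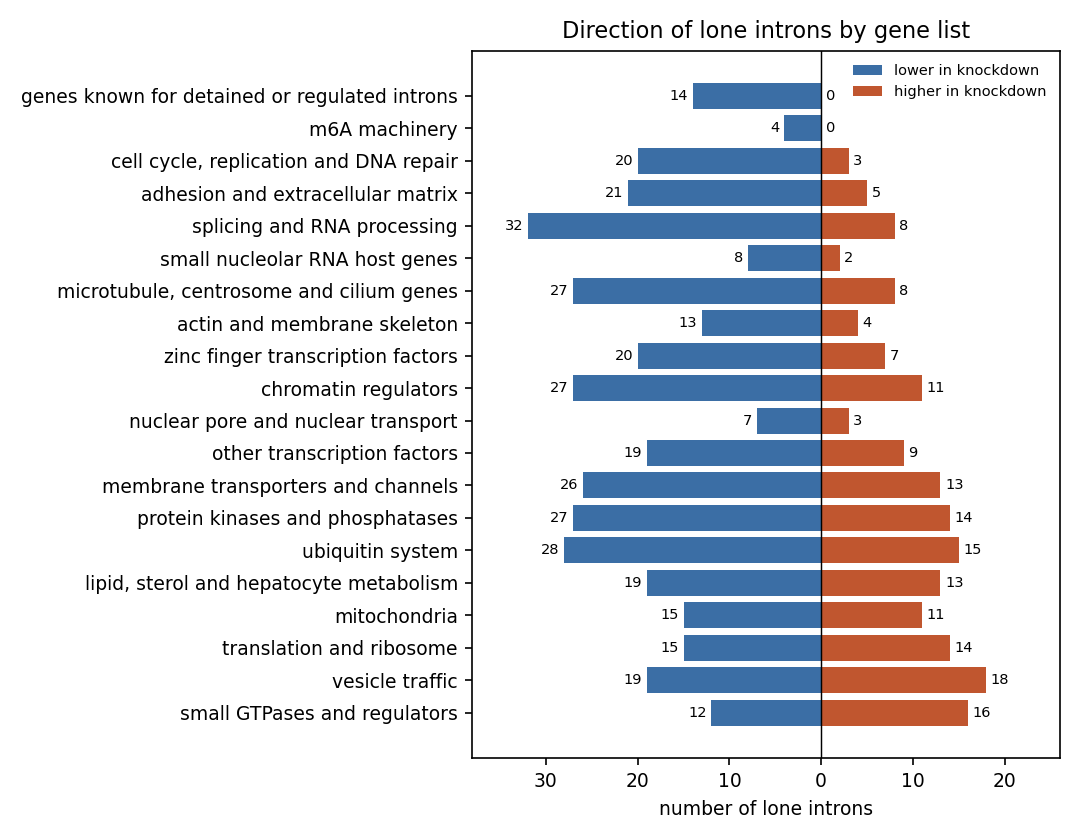
Number of lone introns that were lower (left of 0) and higher (right of 0) in the knockdown in each gene list, ordered by the share lower. Genes known for detained introns and the m6A list, which holds only 4 introns, have no rise, beside 71.7% lower of all listed introns. The small GTPase list is the only one with more rises than falls.

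Genes of transcription and chromatin lay near the 71.7% lower of all listed introns. Zinc finger genes had 20 of 27 lower (8 of the falls under the median of all listed introns), other transcription factors 19 of 28 (7 under it) and chromatin regulators 27 of 38 (12 under it). ZNF337 went from 447 to 91.8 and ZNF638 from 287 to 76.6, and TCF12, a basic helix-loop-helix factor, from 209 to 59.5. HDAC8, a histone deacetylase, went from 1061 to 296, RBBP4, a histone chaperone, from 430 to 159, and EZH2, the methyltransferase of Polycomb, from 301 to 134. Rises included ELL2, an elongation factor (105 to 288), HIF1A, the hypoxia factor (111 to 260), SIN3B (111 to 325) and PHF3 (54.7 to 220).

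In the list of cell cycle, replication and DNA repair 20 of 23 lone introns were lower (87.0%, beside 71.7% of all listed introns), 9 of them by less than the median of all listed introns. Over all listed introns of this list 80 of 84 were lower. NABP1, a single-strand DNA binding protein, went from 255 to 47.8, PARP11 from 1374 to 573, RFC3, a clamp loader subunit, from 487 to 173, and POLD3, a polymerase delta subunit, from 406 to 150. ESCO1, TOP3B and REV1 were the 3 rises. Microtubule, centrosome and cilium genes had 27 of 35 lower (8 under the median), with the kinetochore genes CENPK (469 to 124), NDC80 (415 to 110) and NUF2 (92.0 to 30.4) among them. Over all listed introns of the microtubule list 59 of 76 were lower. Adhesion and matrix genes had 21 of 26 lower (5 under it; 57 of 65 over all listed introns) and actin and membrane skeleton genes 13 of 17 (5 under it; 43 of 50). WASHC3 and WASHC4, subunits of the endosomal WASH complex, went from 446 to 118 and from 325 to 99.9. Nuclear transport genes had 7 of 10 lower (2 under it), near the share of all listed introns, including the export factors XPO1 (416 to 113) and NXF1 (403 to 139).

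Membrane traffic and its switches were more even. Small GTPases and their regulators had 12 lower and 16 higher, and this list alone had a positive median log2 fold change, 1.07, in the authors' deposited table. RAB17 rose from 184 to 527 and RAB12 from 193 to 499, while RALGAPA1, a GTPase activator of Ral, fell from 371 to 122.7 and VAV3 from 277 to 83.2. Over all listed introns of this list 32 of 65 were lower. Vesicle traffic had 19 lower (6 of them under the median of all listed introns) and 18 higher: SNX19 fell from 1483 to 272 and VPS29, a retromer subunit, from 633 to 212, while SEC24D, a COPII coat protein, rose from 48.9 to 257. Translation genes had 15 lower (8 under it) and 14 higher, with LARS1, a leucyl-tRNA synthetase, falling from 262 to 60.6 and EIF2AK3, the stress kinase PERK, rising from 29.1 to 160. In mitochondrial genes 15 were lower (6 under it) and 11 higher. Counted over all listed introns, 42 of 75 in the vesicle list, 15 of 32 in translation and 38 of 57 (66.7%) in mitochondria were lower. HIBADH and ETFA of amino acid and fatty acid oxidation fell from 229 to 54.0 and from 403 to 154, while MRPL3 and COQ4 rose from 123.3 to 378 and from 125 to 393.

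Lipid and hepatocyte genes went both ways. Of 32 lone introns 19 were lower, 3 of them by less than the median of all listed introns, and 13 higher. The same list had 77 of 106 lower (72.6%) over all listed introns, near the general 71.7%. Beside SREBF1 and SREBF2, INSIG1, which retains their cleavage activator in the endoplasmic reticulum, went from 95.9 to 35.7 and STARD4, a sterol carrier, from 284 to 98.6. The fatty acid desaturase genes FADS1 and FADS2 went from 42.4 to 8.62 and from 142 to 48.0. Rises were seen for HMGCS1, which makes HMG-CoA for cholesterol synthesis (18.6 to 75.3), ELOVL5, a fatty acid elongase (66.1 to 349), LRP8 (270 to 631), CERS5, a ceramide synthase (427 to 957), and ST3GAL1, a sialyltransferase (55.2 to 317). FAAH2 and PLD5 fell, from 435 to 176 and from 131 to 20.2. Transporters and channels had 26 of 39 lower (10 under that median), with SLC16A4 at 1080 to 335 and SLC20A2, a phosphate transporter, at 1174 to 548.

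Signalling and protein turnover lay near the share of all listed introns. Kinases and phosphatases had 27 of 41 lower (8 under the median of all listed introns) and the ubiquitin system 28 of 43 (7 under it). MAST2 fell from 291 to 22.6, PTPRG from 375 to 82.1, SENP1, a SUMO protease, from 1106 to 340, and NEDD4, a ubiquitin ligase, from 316 to 79.3. UBE2D2, a ubiquitin-conjugating enzyme, rose from 70.2 to 338. Small nucleolar RNA host genes had 8 of 10 lower (6 under it). The 8 include RPL9P14, which the list took by name and GENCODE types as a processed pseudogene. No marker of blood, endothelial or neural cells on the list fixed for that purpose had a lone intron.

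Isoforms of the same genes were listed for 295 of the 1112 genes (26.5%), 476 isoforms in all, of which 55.5% were lower beside 53.3% of all listed isoforms. In 168 genes (56.9%) every listed isoform went the way of the intron, in 57 (19.3%) every one went the other way and in 70 they were mixed. Counted by isoform, 325 of 476 (68.3%) went the way of the intron. The same share was 72.7% in genes with several listed introns outside the gene table and 91.3% in genes of the gene table, taking genes whose introns all went 1 way. Introns and isoforms come from the same 4 libraries.

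**Figure D4:**
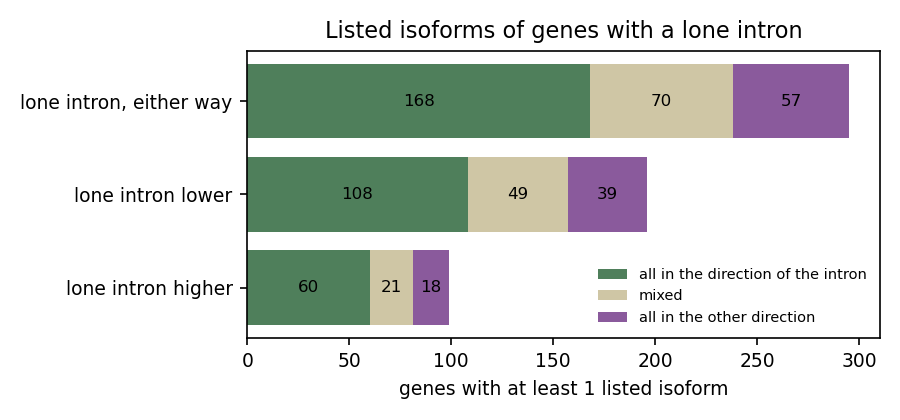
Genes with a lone intron and at least 1 listed isoform, split by whether the listed isoforms went the way of the intron, the other way or both ways. Of 196 genes with a lower intron 108 had isoforms that were all lower, and of 99 with a higher intron 60 had isoforms that were all higher.

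In SRSF11 intron and isoform moved together: by the authors' deposited table its coding isoform went from 61.2 to 18.7 FPKM. CLPTM1L rose in both, and the authors' deposited table gives its isoform 3.46 and then 27.8 FPKM. TRAF5, an adaptor of TNF receptors, had 2 isoforms lower with its intron (authors' deposited table, 5.92 to 1.60 and 7.22 to 0.916 FPKM). SLC16A4, LMLN and DUXAP8 also moved 1 way. Against their lower introns, CNIH4 had 2 isoforms that rose (authors' deposited table, 66.8 to 139 and 5.78 to 18.3 FPKM), HDAC8 had 1 (2.28 to 6.75) and WASHC4 1 (1.07 to 2.44). CDV3, ZNF638 and CTTN, the cortactin gene, were of this kind with isoforms under 3 FPKM. HHAT, RO60, MYPN and PIP5K1B had both kinds. In HHAT, by the authors' deposited table, an isoform rose from 0.0152 to 1.01 FPKM while another fell from 1.74 to 0.728 and 2 more were listed at 0 in the knockdown.

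GENCODE types 8 listed isoforms of these genes as retained intron, and 3 of them went the way of the lone intron while 5 went the other way. Besides POGZ and PHLDB1, EXOC7, an exocyst subunit, went down with its intron (authors' deposited table, 1.94 to 0.554 FPKM; intron 59.6 to 12.8 normalized counts). In CENPM, MRRF, INTS3, WASHC4 and CARD8 the lone intron was lower and the retained-intron isoform higher, by the authors' deposited table from 1.93 to 11.5 FPKM for CENPM and from 0.748 to 2.77 for MRRF. POGZ, a zinc finger gene of chromatin, shows a change of form: in the authors' deposited table another isoform went from 8.03 to 0.149 FPKM and a protein coding one from 0.613 to 3.50. Of 10 isoforms typed as targets of nonsense-mediated decay, 8 went the way of the intron, with CASP9, the initiator caspase gene, the most abundant (authors' deposited table, 54.9 to 16.8 FPKM).

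Exons are the only features with a value per library. For 48 genes with a lone intron the exon table lists 60 exons, of which 4 repeat the values of a near-identical copy. limma on log2(normalized count + 1), with Benjamini-Hochberg adjustment over all 474 listed exons, called 59 of the 60 (98.3%), beside 96.2% of all listed exons. Of the 59, 44 were lower and 15 higher, beside 65.6% and 30.6% of all listed exons called in each direction. Recentred on the median of all listed exons, 41 were called, 24 lower and 17 higher, beside 297 of all 474 listed exons. The exons had been selected by the authors in these libraries, so this share is not independent evidence. The 2 groups did not overlap for any of the 60, beside 98.9% of all listed exons. In 41 the exon went the way of the lone intron (34 both lower, 7 both higher), and in 19 the other way (8 with the intron lower, 11 with the intron higher). The 34 include the 4 repeats. Most of these introns and most of these exons were lower, which alone makes many pairs go 1 way. The same share was not counted over all listed exons.

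SRSF11 had 2 listed exons, both lower with its intron. Exon 6 had 778 and 774 normalized counts in the control against 249 and 238 after knockdown (limma log2 difference -1.67 ± 0.14 SE, adjusted p = 0.00121). Exon 11 had 206 and 212 in the control against 75.5 and 67.7 after knockdown. The replicates of each group lay close together and far from the other group in both exons. NBPF1 exon 12 had 314 and 363 in the control against 49.5 and 56.6 after knockdown (-2.65 ± 0.17, limma adjusted p = 0.000689), though NBPF genes are near-identical copies that share reads. LNPK, which shapes the endoplasmic reticulum, had exon 9 at 42.8 and 36.4 in the control against 0.868 and 1.86 after knockdown. BNIP2 exon 1 was the most abundant, at 1437 and 1475 in the control against 756 and 761 after knockdown (-0.94 ± 0.14, limma adjusted p = 0.00361). NCAPD2, a condensin subunit, had exon 2 at 57.8 and 85.3 in the control against 8.68 and 5.57 after knockdown, and KLC1, a kinesin light chain, exon 11 at 91.8 and 127 against 53.0 and 50.1. The KLC1 call was lost without either knockdown library.

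**Figure D5:**
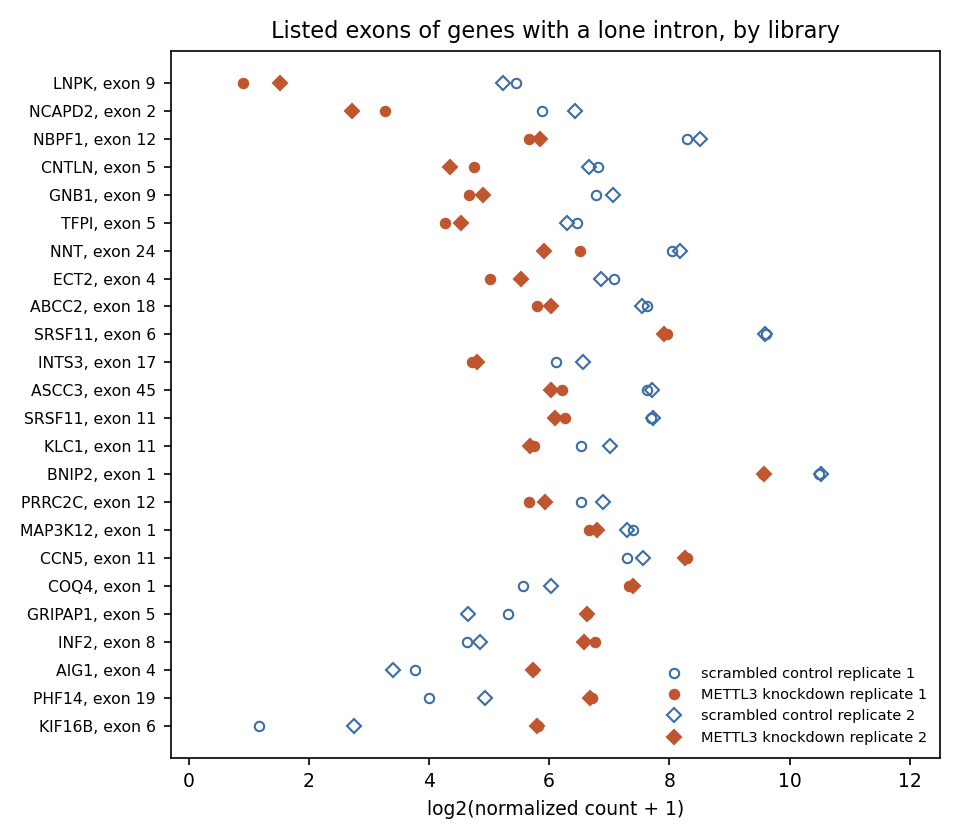
Normalized counts, as log2(value + 1), of 24 listed exons of genes with a lone intron in each of the 4 libraries, open symbols for control and filled symbols for knockdown. The groups are apart in every exon shown, and KIF16B exon 6 has the widest spread between control libraries on this scale (1.26 and 5.75 normalized counts).

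The 7 exons that were higher together with the intron included those of KIF16B, PHF14 and COQ4, and of MFF, a mitochondrial fission factor, LSM5 and LAMP1, a lysosomal membrane protein. PHF14 exon 19 had 15.1 and 29.7 normalized counts in the control against 104 and 101 after knockdown (2.22 ± 0.35, limma adjusted p = 0.00401), and its lone intron, also numbered 19, went from 83.3 to 220. COQ4, of coenzyme Q synthesis, had exon 1 at 46.5 and 64.2 in the control against 159 and 168 after knockdown. KIF16B, an endosomal kinesin, had exon 6 at 1.26 and 5.75 in the control against 55.6 and 54.8 after knockdown beside a rise of intron 5 from 24.9 to 89.8. In KIF16B, PHF14 and COQ4 both knockdown libraries stood above both control libraries, but the limma call was lost in each, and in LSM5, when either knockdown library was left out.

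Other genes had an exon that moved against the intron. GNB1, a G protein beta subunit, had exon 9 at 109 and 132 in the control against 24.3 and 28.8 after knockdown (-2.14 ± 0.19, limma adjusted p = 0.00121), while its intron 10 rose from 47.2 to 127. ASCC3 exon 45 (196 and 208 against 72.9 and 64.0), NNT exon 24 (263 and 287 against 90.3 and 59.4), MAP3K12 exon 1 (167 and 156 against 99.8 and 110) and PRRC2C exon 12 (91.8 and 118 against 49.5 and 60.3) likewise fell beside introns that rose. NNT encodes the mitochondrial transhydrogenase and ASCC3 a helicase, and the listed isoforms of both genes also fell. In the other direction INF2, a formin, had exon 8 at 23.9 and 27.8 in the control against 108 and 94.7 after knockdown (1.93 ± 0.17, limma adjusted p = 0.00121) beside a fall of intron 23 from 391 to 188. CCN5, a matricellular protein gene, rose at exon 11 from 156 and 189 to 314 and 306 beside a lower intron 4 (435 to 195). The calls of CCN5 and PRRC2C were lost without either knockdown library, that of PRRC2C also without control replicate 2, and that of MAP3K12 without knockdown replicate 1. The one exon that missed the threshold, in a gene without a symbol, had 155 and 395 in the control against 115 and 69.6 after knockdown (limma adjusted p = 0.0540).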

How the data were processed

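RNA of 2 groups of 2 HepG2 libraries was compared. Build hg18 and the tools Cufflinks, Cuffdiff 1.0.3, DESeq 1.5.24, HTSeq, TopHat 1.2.0 and CASAVA 1.8 appear, with no role given, in the submitters' processing notes. For genes and introns the authors deposited group means of normalized counts (a signal), a ratio or fold change, its log2 value and p-values with adjusted p-values. Per the file headers the authors deposited 1 FPKM value per group for isoforms, and the natural log of their ratio, and a normalized signal per library for exons. The tables hold only features at an adjusted p under 0.05 and at least 2-fold by the authors' own fold change, so library depth is unknown. For exons that fold change is not the ratio of the group means, and its scale is not stated. Exon 1 of MAP3K12 has -1.16 on the authors' log2 scale and -0.62 by limma. Some listed exons therefore changed less than 2-fold in level. The design text calls the libraries biological replicates, the labels do not say how cultures were separated, and p-values measure only the spread between these libraries.

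Lone introns were found by the rule above. Symbols came from a gene name table (1056 of 1112 had one) and gene types, spans and transcripts from GENCODE 29. Isoforms were joined by transcript (5050 of 7251), otherwise by symbol (1325); 876 had no match. The exon test used R 4.3.3 and limma 3.58.1, on values as log2(value + 1), which understates changes of low exons; the step was tested on simulated data. With 2 libraries against 2 an exact permutation test cannot go below p = 0.333. Isoform, intron and gene values have no replicates and got no test here.

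Members and gene lists were chosen with earlier results of these data known. After the members were seen, 12 genes that a list took by name only were removed, and 1 list of noncoding genes was replaced by GENCODE types. Named genes are the largest falls and rises, introns at 0, smallest adjusted p, highest levels, the first members of each list by adjusted p, genes by isoform class and genes with a listed exon; further list members, noncoding genes, hosts of microRNAs and isoforms by GENCODE type were named after their values were seen.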

Additional observations from a re-analysis of the deposited data

How the results depend on the processing

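The number of lone introns stayed between 755 and 1178 and the share lower between 66.3% and 71.8% under an adjusted p under 0.01 (71.8% lower), a mean of at least 50, a pseudocount of 1, merged loci, absence from the isoform table too, and identical rows counted once (chosen after seeing the data). Recentring on the median of all listed introns (log2 fold change -1.36) while keeping 2-fold left 488 introns, 28.3% lower. Its construction gives this, since it removes most falls, those of median size included, and no rise. Of the 762 falls 138 stayed, and all 350 rises stayed. Introns on or off numbered 12 at exactly 0 (also with the other group at least 20), 49 at or under 1 and 74 at or under 2 normalized counts (chosen after seeing the data). With a mean of at least 5 FPKM, 96 genes had an isoform, 69 the way of the intron and 19 the other way; with 1 isoform per gene 86 went the other way. Isoforms at adjusted p under 0.01 or joined by symbol stayed within 1.5 times.

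Of the exons, limma called 59 with the replicate block as without it, beside 447 and 456 of all 474 listed exons. Same-numbered libraries showed no shared deviation (correlation 0.00121 over 474 exons), and the labels do not say whether they were paired. A pseudocount of 5 gave 60 calls (459 of all 474) and merged loci 85 of 88. A mean of at least 50 gave 38 of 38 (271 of all 284, fewer exons tested). Recentred, 41 were called (24 lower, 17 higher), beside 297 of all 474. Leaving out 1 library leaves a group with 1 library, assumed to vary like the other group. Calls then fell among these exons and among all listed exons, most without a knockdown library. Recentring turned the sign of 9 exons: ADSS2 0.46, MTMR1 0.34, MLF2 0.00071, GTPBP4 0.54, PRRC2C 0.32, KLC1 0.18, MAP3K12 0.61, BNIP2 0.30 and MSL1 0.15. Among the exons named in the results, those of PRRC2C, KLC1, KIF16B, PHF14, CCN5, COQ4 and LSM5 lost the call without either knockdown library, that of MAP3K12 without knockdown replicate 1, that of PRRC2C without control replicate 2, and those of ASCC3, NNT and SRSF11 lost it on recentring.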
